A study of Mus musculus with 12 samples.

Results

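The LowK course was reprogrammed from mouse embryonic fibroblasts with the Sendai virus vector SeVdp(fKOSMaB) and received no Shield1, a small molecule that keeps proteins tagged with a destabilising domain from being degraded. It holds 3 libraries, LowK day 35, LowK day 52 and LowK day 56, and each was set against MEF1, a library of fibroblasts at day 0 with neither vector nor agent. These 4 libraries were chosen by their labels from the 12 of the study, and MEF1 was taken because its variant table has the same lower limits as the LowK tables. Every library holds poly(A) RNA, and each table lists variants on the X chromosome against mouse build mm10. The labels do not give the mouse strains, the sex of the cells, which parent each X chromosome came from, whether feeder cells were used or whether a culture was cloned.

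In female mammals, 1 of the X chromosomes of each cell is silenced by a process that the noncoding RNA Xist starts, and fibroblasts keep that state through division. Reprogramming to pluripotency is known to be followed by renewed expression from the silenced chromosome. A small class of X-linked genes, the escape genes, is expressed from both chromosomes in differentiated cells. Where the X chromosomes differ in sequence, RNA reads tell which allele was expressed, which is what the tables measure.

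The measure used throughout is the reference share, the percent of reads covering a variant site that do not carry the variant allele. Sites were single-base variants with at least 20 covering reads in both tables of a pair, and reads were summed over the sites of a gene. The 3 pairs shared 973, 1121 and 1020 sites with MEF1 at days 35, 52 and 56, which lay in 163, 170 and 163 genes. In all, 175 genes were tested in at least 1 pair, of 399 genes with such a site in any library of the study, and 154 genes were tested in all 3. A gene was called where Fisher's exact test on its reads gave an adjusted p under 0.05 (Benjamini-Hochberg over all genes of the pair) and the shares differed by at least 20 percentage points. There is 1 library per day, so the test compares the reads of 2 libraries, not conditions, and there is no replicate check. All 3 pairs share the MEF1 library, so their values are given side by side.

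Depth was similar across the 4 libraries, with total coverage at single-base sites of 138579 to 173722 reads in LowK libraries and 150198 in MEF1, and a median coverage of 35 to 38 reads per site in LowK libraries and 37 in MEF1. The 28 fibroblast-expressed genes of a list took 9.48%, 9.42% and 7.96% of all listed coverage in LowK at days 35, 52 and 56, and 51.6% in MEF1. The 18 genes of a pluripotency and germline list took 3.35%, 4.0% and 3.87% in LowK and 0.526% in MEF1. At day 35, Dkc1, Esx1 and Tfe3 had 1837, 1673 and 1199 of this list's 5507 reads, and Dkc1 and Tfe3 were listed in MEF1 too. Rhox5, a homeobox gene of the germline, had 71, 195 and 219 covering reads in LowK and was not listed in MEF1. Other members were scarce in LowK: Nr0b1 had at most 11 reads and Dusp9 at most 10 in any of its libraries. Tex11, Tktl1, Rhox6 and Rhox9 had no listed site in LowK or MEF1. Col4a5, a basement membrane collagen of the fibroblast-expressed list, was listed with 3979 reads in MEF1 and in no LowK library. Some members of that list went the other way. Gpc3 had 2112, 2072 and 1447 reads in LowK and no listed site in MEF1. Armcx1 had 458, 603 and 554 reads in LowK against 31 in MEF1, and Bex3 had 1512, 1296 and 1233 against 756.

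Over all tested genes, 8, 18 and 36 passed the test as higher in LowK at days 35, 52 and 56, and 22, 20 and 12 as lower. The median reference share was 2.17%, 2.71% and 5.45% in LowK at days 35, 52 and 56, and 3.64%, 3.77% and 3.81% in MEF1 at the same sites. Most of the tested genes therefore gave almost only variant reads at the shared sites in LowK and MEF1. The site rule favours this, since a site enters only where both tables list the variant allele. The median difference between LowK and MEF1 was -0.88, -0.53 and 1.60 percentage points. LowK was higher than MEF1 in 48, 55 and 106 genes and lower in 104, 102 and 54, so the majority lay below MEF1 at days 35 and 52 and above it at day 56. The sign of this median at days 35 and 52 rests on the fibroblast library used: against MEF2, the other fibroblast library, whose table has lower limits, the medians were 0.44, 1.31 and 3.27. MEF2 itself had a median share of 1.08%, against 3.68% in MEF1.

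The calls were few. LowK was called higher in 2 of 163 genes at day 35 (1.23% of the genes tested), 3 of 170 at day 52 (1.76%) and 8 of 163 at day 56 (4.91%). No gene was called lower, but only 11, 14 and 12 genes had a MEF1 share of 20% or more, and the others were too close to 0 to drop by 20 points. With the same rule, MEF2 against MEF1 gave 0 of 174 genes (0%), with 61 genes at an unadjusted p under 0.05 and 53 at an adjusted p under 0.05. Of the 53, 52 were lower in MEF2 and 1 was higher. MEF1 thus lay above MEF2, past the test, in more genes than it lay above any LowK library (22, 20 and 12). The upper end of the 95% interval of the difference was under 20 points in 159, 160 and 145 genes. For 2, 7 and 10 genes that were not called, the interval reached 20 points or more, and a difference of that size was not detectable or excludable at their depth.

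**Figure D1:**
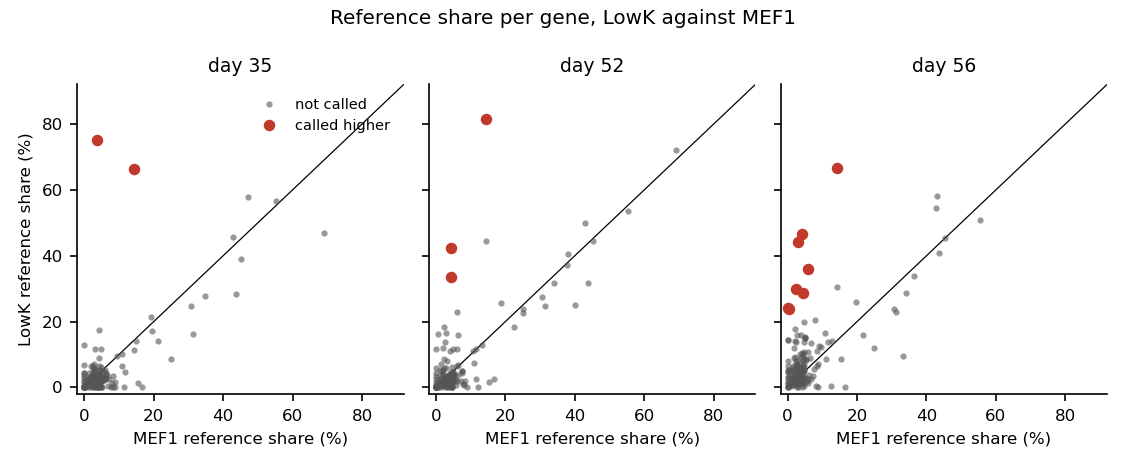
Reference share of each gene in the LowK library (vertical axis, percent) against MEF1 at the same sites (horizontal axis, percent), 1 panel per day, with the line of equal shares. Red points are the 2, 3 and 8 genes called higher in LowK, and most grey points lie in the lower left corner, near the medians of 2.17%, 2.71% and 5.45% in LowK.

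The 9 genes called in at least 1 pair were Hdac6, Wdr13, Dynlt3, 1810030O07Rik, Fundc1, Timp1, Bgn, Tceal3 and Acot9, in their order along the chromosome. For 7 of them a listed site lay in coding sequence, and the 30 bases around the best covered such site are shown 5′ to 3′ on the coding strand, because reads over these bases carry the allele counts that follow. The capital is the reference base at the variant site, base 16 of each window, and the sequences come from GENCODE M21 transcripts on mm10.
Hdac6: tgagccaacgcctccAgcctcgcatacaaa
Dynlt3: gaataacatcaaccaAtggactgcaagcat
1810030O07Rik: caggcctctggcccaAagacccttgggagg
Fundc1: agcaaagagacagatAaagaagcgagcaaa
Timp1: acggatcaggtcctcGtgggctctgaggac
Tceal3: atgatgagagagtgcGcagatatgactagg
Acot9: tttgtaaatccactcAttccggaaaataaa

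The Hdac6 window is chrX:7931566-7931595 on the minus strand, and its variant A16T (counted from 1 at the 5′ end) leaves proline 963 as it is. At this site the reference allele had 2 of 80, 11 of 71 and 21 of 93 reads in LowK at days 35, 52 and 56, against 1 of 44 in MEF1. The Dynlt3 window is chrX:9657097-9657126 on the minus strand, with the synonymous variant A16G in codon 42. The 1810030O07Rik window is chrX:12673034-12673063 on the minus strand, where A16T changes the protein by K110I. The Fundc1 window is chrX:17558718-17558747 on the minus strand, with the synonymous A16T in codon 113. The Timp1 window is chrX:20874528-20874557 on the plus strand, where G16A gives V177M. The Tceal3 window is chrX:136667948-136667977 on the plus strand, where G16A gives A143T, and it is the gene's only shared site. The Acot9 window is chrX:155293916-155293945 on the plus strand, where A16G gives I220V. Protein changes are read from the reference transcript with the variant base put in. The sites of Bgn and Wdr13 used here all lay in untranslated regions.

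Hdac6 and Dynlt3 act on the microtubule system and had the deepest evidence among the genes called at day 56. Hdac6, a cytoplasmic deacetylase of tubulin (chrX:7930120-7947889), had a reference share of 4.86% (65 of 1337 reads), 18.5% (189 of 1021) and 29.8% (350 of 1175) in LowK at days 35, 52 and 56, against 2.41%, 2.32% and 2.41% in MEF1 (16 reference reads in each pair). The day 56 difference was 27.4 points (95% interval 24.4 to 30.2, adjusted p = 9.3e-55 by Fisher's exact test), and LowK was the higher at 19 of 19 sites. The call was lost at a minimum of 50 reads, which left a single site, with 17 of 72 reads in LowK and 2 of 50 in MEF1. The difference there was 19.6 points (adjusted p = 0.0155 by Fisher's exact test). At day 35 the difference of 2.46 points had an adjusted p of 0.0429 by Fisher's exact test, with LowK higher at 15 of 19 sites. Its sign turned at the site left by the minimum of 50 reads (-4.0 points, 0 of 81 against 2 of 50) and at the single best covered site (-0.17).

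Dynlt3, a light chain of the motor protein dynein (chrX:9654267-9663003), had 5.30% (61 of 1150 reads), 22.9% (181 of 792) and 36.1% (420 of 1165) in LowK, against 5.99% (66 of 1102) in MEF1 at the same 20 sites. LowK was higher at 9 of the 20 sites at day 35 and at all 20 at days 52 and 56. By Fisher's exact test the day 35 difference of -0.68 points had an adjusted p of 0.835. The later differences were 16.9 points (interval 13.7 to 20.2) and 30.1 points (26.9 to 33.1), so day 52 fell short of the call limit. Site by site, Dynlt3 ranged from 15% to 47.7% in LowK at day 56 and from 0% to 12.2% in MEF1, with no overlap between the ranges. Sites of a gene can lie on the same reads and are not independent.

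**Figure D2:**
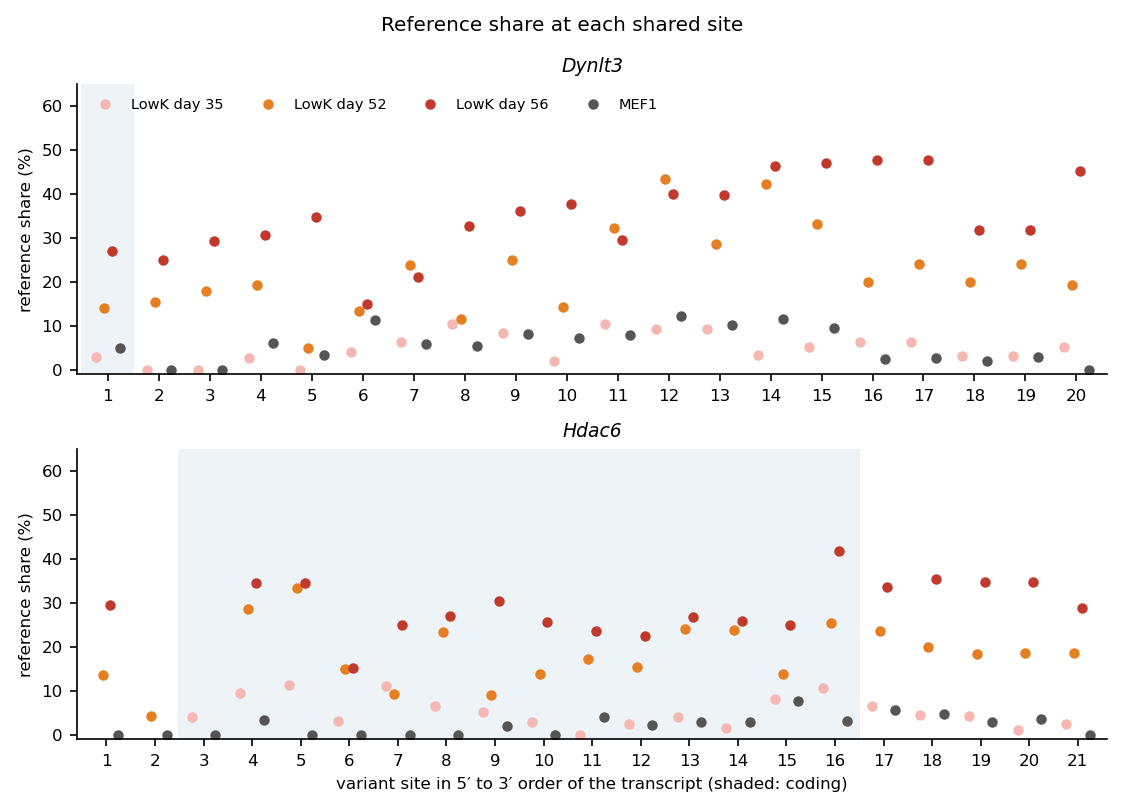
Reference share (percent) at each shared variant site of Dynlt3 and Hdac6, in 5′ to 3′ order of the transcript, for the LowK libraries at days 35, 52 and 56 and for MEF1; shaded sites are coding and points under 20 reads are left out. At day 56 LowK lies above MEF1 at all 20 sites of Dynlt3 and at all 19 tested sites of Hdac6.

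Fundc1 and Acot9 code for mitochondrial proteins. Fundc1, a mitophagy receptor of the outer membrane (chrX:17556564-17572325), had 9.09% (7 of 77 reads), 33.6% (37 of 110) and 28.7% (31 of 108) in LowK, against 4.35% (5 of 115) in MEF1. It was called at day 52 (29.3 points, interval 19.5 to 38.9) and day 56 (24.4 points, interval 14.9 to 33.8), and at day 35 the adjusted p was 0.483. On the single best covered site the day 56 difference was 22.4 points with an adjusted p of 0.0787 by Fisher's exact test, so the call was lost there. Acot9, an acyl-CoA thioesterase (chrX:155262443-155297654), had 13.0% (19 of 146), 16.1% (43 of 267) and 23.7% (55 of 232) in LowK, against 0% (0 of 185) and 0.47% (1 of 212, at both later days) in MEF1. All 3 Acot9 differences passed the test, with adjusted p of 1.59e-06, 1.61e-09 and 8.01e-15, and day 56 alone passed 20 points. LowK was higher at every shared site of both genes on all 3 days.

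Timp1 and Bgn belong to the extracellular matrix and were abundant in fibroblasts. Timp1, an inhibitor of matrix metalloproteinases (chrX:20870166-20874735), had 11.7% (25 of 214 reads), 16.4% (12 of 73) and 44.1% (49 of 111) in LowK, against 3.12% (23 of 736) and 2.93% (18 of 614, at both later days) in MEF1. It passed the test on each day and the call limit at day 56 (41.2 points, interval 32.2 to 50.6). Bgn, the proteoglycan biglycan (chrX:73483602-73495933), had 75.2% (164 of 218 reads) in LowK at day 35, against 3.68% (634 of 17223) in MEF1, which was the largest difference of any gene in the 3 pairs. Its 6 sites lay close together, none with more than 40 LowK reads, and gave 70.0% to 78.3% in LowK and 3.06% to 5.11% in MEF1. No Bgn site was shared at days 52 and 56. The tables list no position below 5 variant reads or about 10%, so its share on those days is not known. A gene that turned nearly all reference would drop out of the comparison in this way, and so would a gene with too few covering reads. Which of these applied to Bgn was not tested.

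The other called genes were 1810030O07Rik, Wdr13 and Tceal3. The gene 1810030O07Rik (chrX:12654879-12673668), a member of the escape list, had 17.4% (12 of 69 reads), 42.2% (38 of 90) and 46.7% (49 of 105) in LowK, against 4.17% (2 of 48) and 4.29% (3 of 70, at both later days) in MEF1. Its day 35 difference had an adjusted p of 0.143, and days 52 and 56 were called. Wdr13, a WD-repeat protein (chrX:8123301-8132892), had 1.81% (3 of 166), 11.7% (19 of 163) and 24.2% (43 of 178) in LowK, while MEF1 had no reference read among 126, 126 and 148. Its day 56 call was lost against MEF2 (19.7 points), at a minimum of 10 reads (18.1) and at its single best covered site (18.8).

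Tceal3, a protein like transcription elongation factor A (chrX:136590842-136668378), was called on all 3 days, with 66.3% (59 of 89 reads), 81.6% (31 of 38) and 66.7% (26 of 39) in LowK, against 14.3% (4 of 28) in MEF1. It rests on 1 site, and the Tceal genes lie together on the X chromosome and resemble each other, so the origin of its reads is uncertain. In MEF2 the same site had 0 of 29 reference reads.

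**Figure D3:**
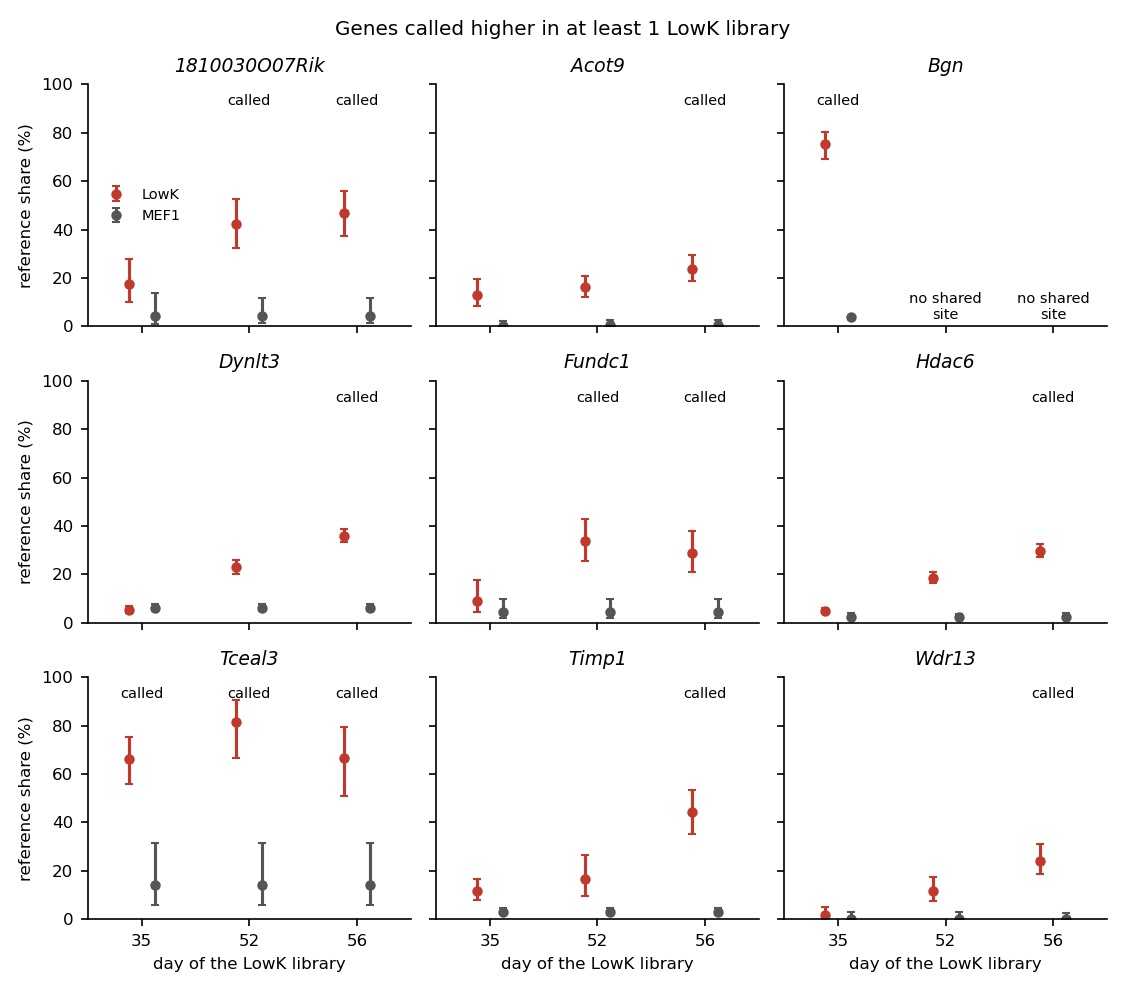
Reference share (percent) of the 9 called genes on each day, LowK in red and MEF1 at the same sites in grey, with 95% Wilson intervals that cover counting error alone. LowK lies above MEF1 on each day measured except for Dynlt3 at day 35 (5.30% against 5.99%).

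None of the 9 called genes was called between the fibroblast libraries. Their MEF1 shares, at most 14.3%, left no room for a call as lower in MEF2. Bgn, Dynlt3 and Timp1 passed the test as lower in MEF2, with differences of -2.57, -3.81 and -2.33 points. In MEF2 the 9 genes ranged from 0% in Acot9, Fundc1 and Tceal3 to 9.09% (2 of 22 reads) in 1810030O07Rik. The nearest genes inside the 20-point limit were Tceal3 (52.0 points) at day 35, Fundc1 (29.3) at day 52 and Acot9 (23.2) at day 56. The nearest outside the limit that passed the test were Acot9 (13.0), Dynlt3 (16.9) and Tmsb4x (15.6). Plp2, which spans membranes in the endoplasmic reticulum, is named after its values were seen: it had 44.4% (16 of 36 reads) in LowK at day 52, against 14.3% in MEF1, and missed the test with an adjusted p of 0.0597.

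A share can be higher because reference reads are more, because variant reads are fewer, or both, and the read numbers of the called genes differed in this. Reads were scaled by the median ratio of coverage between LowK and MEF1 over all genes of a pair (1.35, 1.36 and 1.34) and are given per 100 MEF1 reads of the gene. For Hdac6 at day 56 there were 39.3 reference and 92.5 variant reads in LowK, against 2.41 reference reads in MEF1, so reference reads were 16.3 times and variant reads 0.948 times the MEF1 number. For 1810030O07Rik the day 56 numbers were 52.1 reference and 59.6 variant reads, or 12.2 times and 0.623 times MEF1. Both genes thus had more reference reads at a total coverage of 1.32 and 1.12 times MEF1.

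Dynlt3, Fundc1, Acot9 and Wdr13 had 28.4, 20.1, 19.3 and 21.6 reference reads per 100 MEF1 reads in LowK at day 56, with 50.4, 49.9, 62.2 and 67.9 variant reads. In these genes reference reads were more and variant reads fewer than in MEF1. Tceal3 at day 56 had 69.2 reference and 34.6 variant reads, against 14.3 reference reads in MEF1.

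Timp1 and Bgn differed from the other called genes in total coverage. Timp1 at day 56 had 5.94 reference and 7.52 variant reads per 100 MEF1 reads, so its coverage was 0.135 times MEF1, with reference reads at 2.03 times and variant reads at 0.0775 times. At days 35 and 52 its reference reads were 0.806 and 0.489 times MEF1, so the higher share on those days came with fewer reads of both alleles. Bgn at day 35 had 0.706 reference and 0.233 variant reads per 100 MEF1 reads, a coverage of 0.00939 times MEF1, with reference reads at 0.192 times. In bulk RNA, fewer cells that express a gene and less RNA per cell cannot be told apart. The part that remaining fibroblasts or other cells played in these shares was not tested.

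**Figure D4:**
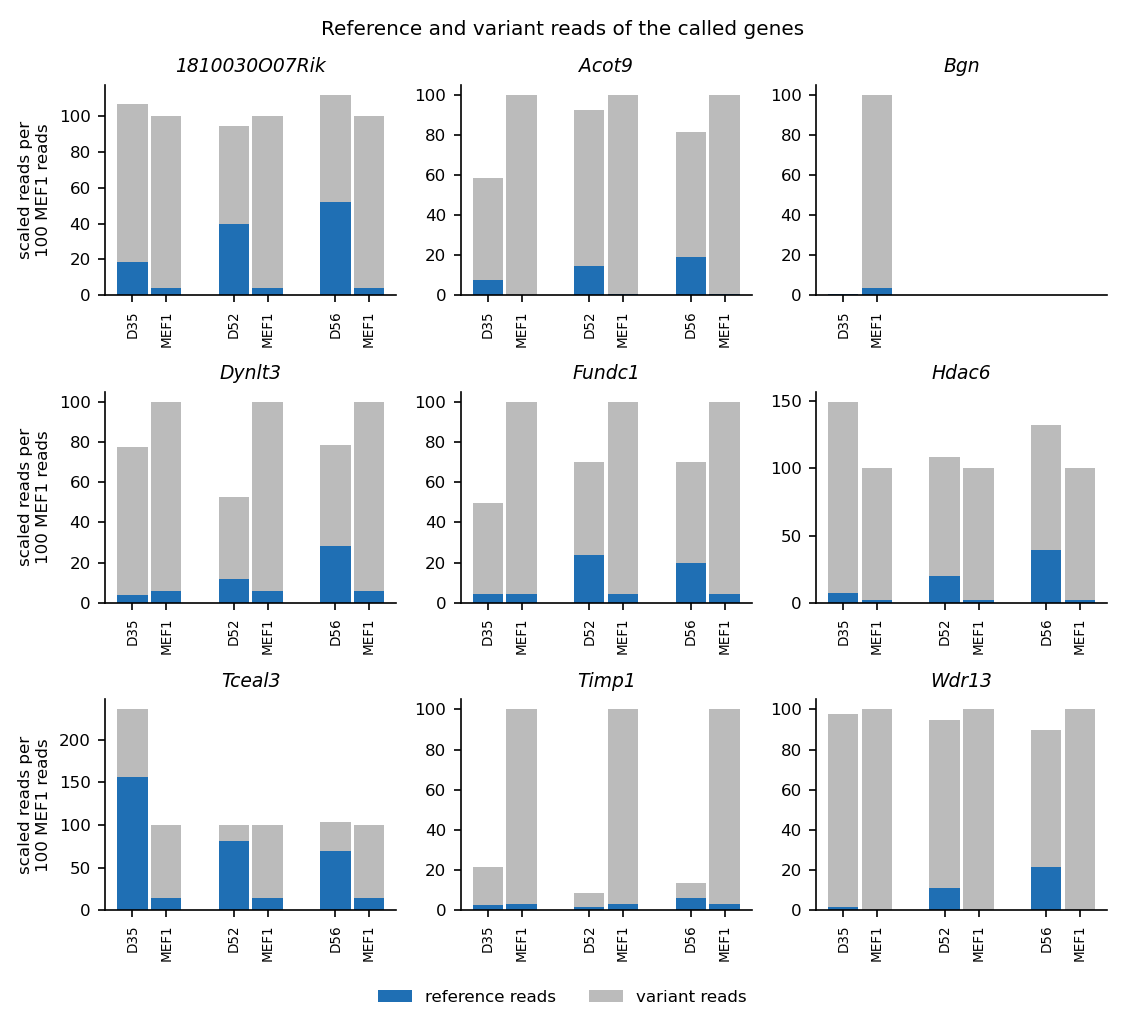
Reference (blue) and variant (grey) reads of the 9 called genes in LowK on each day, scaled by the median coverage ratio of the pair and set beside MEF1 at the same sites, which is 100 reads. Hdac6 in LowK at day 56 stands at 39.3 reference and 92.5 variant reads, while Timp1 stands at 5.94 and 7.52; the vertical scales differ between genes.

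The fibroblast-expressed list had 17, 16 and 17 of its 28 members tested at days 35, 52 and 56, and 3, 6 and 8 of them passed the test as higher in LowK, with 3, 4 and 2 lower, beside 8 of 163, 18 of 170 and 36 of 163 higher and 22, 20 and 12 lower over all genes. Their median difference was -1.64, 1.75 and 5.36 points, beside -0.88, -0.53 and 1.60 for all genes. Their scaled coverage had a median of 0.353, 0.324 and 0.323 times MEF1. Tmsb4x, the actin-binding thymosin beta 4, had 3.35% (36 of 1075 reads), 12% (145 of 1209) and 17.6% (184 of 1043) in LowK, against 2.11% and, at day 56, 2.08% in MEF1, at a coverage of 0.137 times MEF1 on day 56. It passed the test at days 52 and 56 and was not called. Msn, which links membranes to actin, had 5.09%, 8.16% and 8.50% in LowK, against 3.12%, 3.13% and 3.13% in MEF1, and passed on each day. Flna, an actin crosslinker, had 4.42%, 6.07% and 12.5% in LowK, against 2.66%, 2.83% and 8.94% in MEF1, and passed at days 52 and 56. At the coverage of Msn and Flna, differences of 2 to 5 points pass the test, and MEF2 was lower than MEF1 in Msn, Flna and Tmsb4x by 2.13, 1.86 and 1.45 points, each past the test as well.

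Most of the measured escape genes gave reads of both alleles in both LowK and MEF1. Of 18 listed, 7, 8 and 7 were tested, and 6, 7 and 7 had a reference share of 10% to 90% in LowK, against 5, 6 and 5 in MEF1. The list's median difference was -6.29, -1.97 and 0.32 points, and 1810030O07Rik was its only called member. Ddx3x, an RNA helicase, had 45.7%, 49.9% and 54.6% in LowK, against 42.8% in MEF1, and passed the test at days 52 and 56 with differences of 7.05 and 11.7 points. Pbdc1 had 28.5%, 31.8% and 40.8% in LowK, against 43.7% in MEF1, and fell at days 35 and 52, with an adjusted p of 0.678 at day 56 by Fisher's exact test. On its single best covered site, and at a minimum of 50 reads, the Pbdc1 differences at days 35 and 52 (-10.6 and -4.14 points) missed the test. With MEF2 in place of MEF1, Pbdc1 passed as lower on both of these days (-13.8 and -10.5 points). Utp14a, a ribosome biogenesis factor, had 16.3%, 24.8% and 22.9% in LowK, against 31.3% in MEF1, and fell against MEF1 at day 35 alone. That fall missed the test at sites with a single gene name (-10.3 points) and on the single best covered site (-6.95 points). With MEF2 in place of MEF1, Utp14a passed the test as lower at day 35 (-17.9 points) and also at day 52 (-9.53 points). MEF2 had 42.3% for Pbdc1 and 34.3% for Utp14a, so both fibroblast libraries were above LowK at day 35 in these genes.

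The remaining escape genes did not pass the test on any day in the main comparison with MEF1. Kdm5c, a histone H3 lysine demethylase, had 27.9%, 37.2% and 33.7% in LowK, against 34.7%, 37.7% and 36.3% in MEF1. Eif2s3x, a subunit of translation initiation factor 2, had 38.9%, 44.6% and 45.5% in LowK, against 45.2% in MEF1. Their intervals at day 56 ran from -7.96 to 2.68 points and from -7.57 to 8.11 points. With MEF2 in place of MEF1, Kdm5c passed the test as lower at day 35 (-9.38 points) and day 52 (-5.55 points). At a minimum of 10 reads per site it also passed as lower against MEF1 at day 35 (-7.60 points). Syap1 had 3.81%, 4.27% and 11.0% in LowK, against 6.63%, 7.59% and 8.50% in MEF1, and was mostly variant in both libraries. The noncoding 5530601H04Rik was measured at day 52 alone, with 5 of 20 reads in LowK and 8 of 20 in MEF1.

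Of the X-inactivation centre list, Rlim, a ubiquitin ligase that promotes Xist expression, was tested on all days. It had 0.94%, 1.72% and 1.38% in LowK, against 4.24%, 4.30% and 4.30% in MEF1, and passed the test as lower each time, by at most 3.3 points. MEF2 was also mostly below MEF1, with a median difference of -1.70 points and 52 of 174 genes past the test as lower. Rlim against MEF2 is not given here. Xist shared 1 site at day 52, with no reference read in LowK or MEF1. Over all its listed sites, Xist had 49 reference reads of 75 at day 52 and 39 of 44 at day 56 in LowK, no site at day 35, and 0 of 23 in MEF1. Most of these LowK reads lay at sites that MEF1 does not list, so no difference can be given, and reads of Xist and of its antisense partner Tsix cannot be told apart, since the use of strand in counting is not given in the sources used here.

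The housekeeping list had 28 of 41 members tested on each day, and 0 were called, beside 1.23%, 1.76% and 4.91% of all genes. Members that passed the test numbered 0, 0 and 3 higher and 6, 7 and 5 lower in LowK, beside 8, 18 and 36 higher and 22, 20 and 12 lower of 163, 170 and 163 genes in all, with list medians of -1.64, -1.95 and 0.37 points. Pdha1, a subunit of pyruvate dehydrogenase, was among the best covered genes and had 0.82% (32 of 3896 reads), 0.99% (50 of 5066) and 1.54% (71 of 4618) in LowK, against 3.51% (64 of 1822) in MEF1. MEF2 had 1.34%, and against it the Pdha1 differences were -0.52, -0.36 and 0.20 points, with adjusted p of 0.219, 0.397 and 0.777 by Fisher's exact test. Rps4x, a ribosomal protein, had 0.87%, 1.91% and 3.95% in LowK, against 2.35% in MEF1. It was lower at day 35 (-1.48 points) and higher at day 56 (1.60 points), both past the test, and missed it at day 52 with an adjusted p of 0.484 by Fisher's exact test. Against MEF2, which had 0.71%, the Rps4x differences were 0.15, 2.20 and 3.23 points, so its direction at days 35 and 52 rests on the fibroblast library. Its reads may be shared with processed copies and are uncertain, as are those of Gm14681, a pseudogene, with 0.70%, 0.77% and 0.62% in LowK and 0.70% in MEF1. In the pluripotency and germline list, 2 members were tested on each day, Tfe3 and Dkc1, at a median coverage of 6.25, 6.15 and 9.16 times MEF1, and neither was called.

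At day 56, 12 genes passed the test as lower in LowK, none with a difference beyond -11.8 points. The 4 largest falls at day 56 that passed the test were in Tspan6, Hmgn5, Nono and Tmem164. Tspan6, a tetraspanin, had 0 of 323, 9 of 346 and 1 of 179 reference reads in LowK, against 11.5% (25 of 217) and, at day 56, 12.4% (24 of 194) in MEF1. MEF2 had 1 of 302 reads (0.33%), so LowK and MEF2 both lay below MEF1 in this gene. Hmgn5, a nucleosome-binding protein, had 2 of 943, 7 of 946 and 5 of 1137 in LowK, against 5 of 61 in MEF1 and 2.78% in MEF2. Nono, an RNA-binding protein of paraspeckles, had 14%, 18.3% and 15.9% in LowK, against 21.3%, 22.5% and 21.7% in MEF1, and 16.1% in MEF2. Tmem164 had 0%, 0.77% and 1.29% in LowK, against 7.69%, 5.88% and 5.96% in MEF1, and did not pass at day 35; MEF2 had 0.52%. Against MEF2 none of these 4 genes passed the test on any day by Fisher's exact test, with adjusted p from 0.0721 (Nono at day 35) upward. Sh3bgrl, which was also well covered, had 2.51%, 3.90% and 3.91% in LowK, against 6.31%, 6.27% and 6.31% in MEF1, and fell on each day by 2.37 to 3.80 points; against MEF2 it passed the test at day 35 alone (-1.65 points).

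Renbp and Las1l met the rule for naming by passing the test with at least 10 points on 2 days. Renbp, an epimerase of amino sugars, had 7.14% (7 of 98 reads), 13.9% (24 of 173) and 14.2% (39 of 274) in LowK, against 2.88%, 2.54% and 2.27% in MEF1. Las1l, a factor of ribosome biogenesis, had 57.7%, 40.5% and 58.2% in LowK, against 47.1%, 37.9% and 42.9% in MEF1, and gave both alleles in every library. The sets of shared Las1l sites differ between days, with 9, 11 and 10 sites, which is why its MEF1 share changes.

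Genes with a reference share of 10% to 90% numbered 21, 33 and 47 in LowK at days 35, 52 and 56, against 22, 25 and 22 in MEF1. Genes in that range in LowK alone were 5, 13 and 30, and in MEF1 alone 6, 5 and 5. The day 56 library thus had 28.8% of its tested genes in this range, against 13.5% in MEF1. With limits of 20% to 80%, the counts were 11, 18 and 20 in LowK, against 11, 14 and 12 in MEF1, so LowK at day 56 exceeded MEF1 mainly by genes with 10% to 20% of reference reads.

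The called genes numbered 0 of 2, 0 of 3 and 3 of 8 (Hdac6, Wdr13 and Dynlt3) at days 35, 52 and 56 in the first 10 Mb of the chromosome, which held 16 of the tested genes on each day. The window and the uncalled genes named in it were chosen after the values were seen, and its difference from the rest was not tested. Its median difference was 0, 0 and 9.99 points at days 35, 52 and 56, against -1.22, -0.61 and 1.01 points for the rest of the chromosome. All 16 genes were above 0 at day 56, from 2.28 to 30.1 points, and 7 passed the test as higher, beside 90 of 147 above 0 and 29 passing as higher in the rest. The 7 include Tfe3, a transcription factor, with 3.88%, 8.64% and 15.9% in LowK against 2.58%, 2.46% and 2.58% in MEF1, and Timm17b, of the mitochondrial import machinery, with 5.45%, 4.61% and 15.1% against 5.03%. Praf2 had 1.35%, 0.95% and 20.5% in LowK, against 7.95%, 7.77% and 7.95% in MEF1, with an adjusted p of 0.0107 at day 56. Genes of the window that missed the test at day 56 include Ebp, with 4 of 62 reads (6.45%) in LowK and 0% in MEF1, and Gm14820, with 1 of 33 reads (3.03%) and 0%. In MEF2 minus MEF1 the window had a median of -2.29 points and the rest -1.66.

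**Figure D5:**
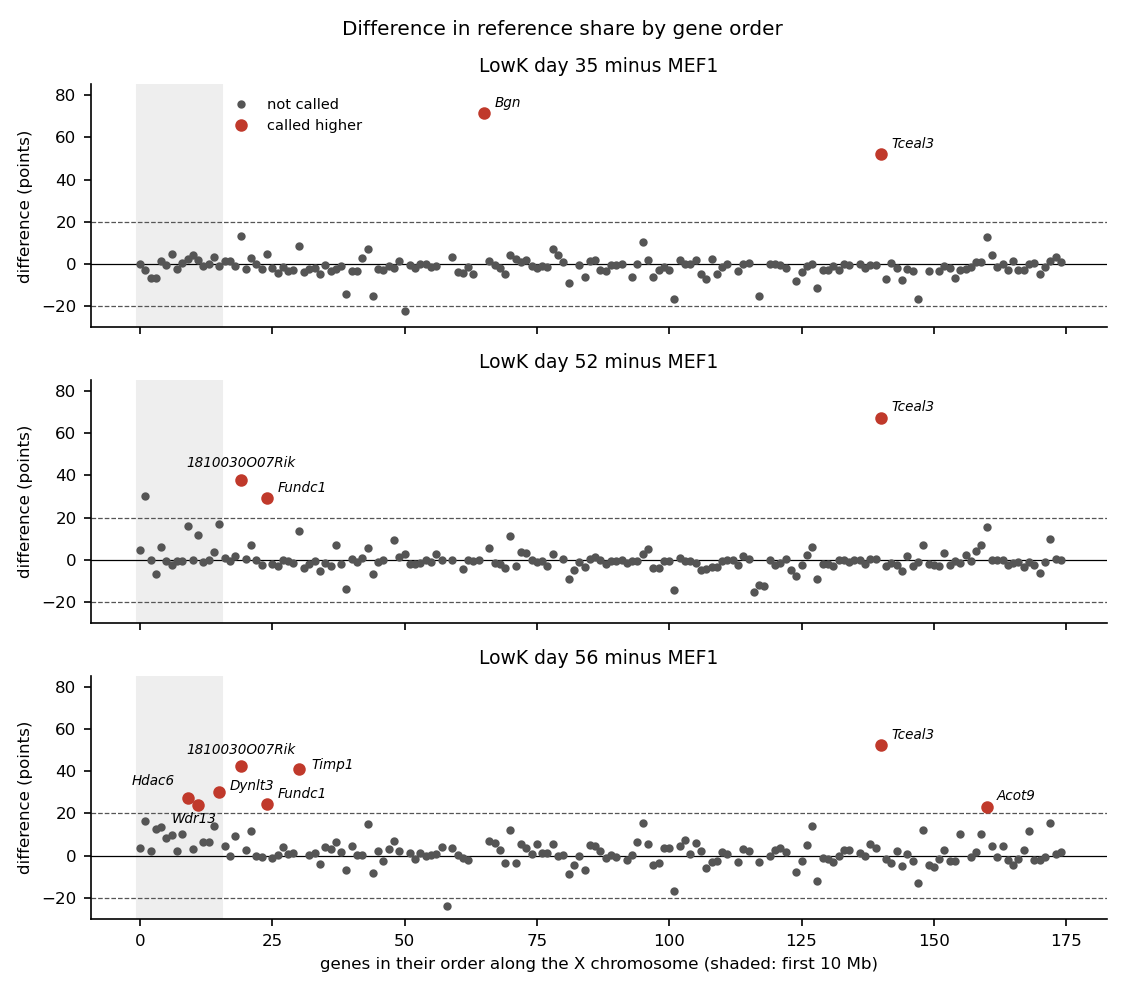
Difference in reference share (percentage points, LowK minus MEF1) of each tested gene in its order along the X chromosome, 1 panel per day; red points are called higher, dashed lines mark 20 points and the shaded band holds the 16 genes of the first 10 Mb. In the band, the median is 0, 0 and 9.99 points at days 35, 52 and 56.

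The comparison covers part of what LowK expressed. Of the genes with a site of at least 20 reads in LowK (264, 286 and 280), 101, 116 and 117 had no site shared with MEF1, and of 193 such genes in MEF1, 30, 23 and 30 were not compared. Gpc3, a cell-surface proteoglycan on the fibroblast-expressed list, had 2112, 2072 and 1447 covering reads in LowK and no listed site in MEF1. Sites at which the X chromosomes share the variant allele remain all variant whichever is expressed, and the tables do not mark them. Within a library, a few cells with both alleles expressed and many cells with weak expression of the reference allele give the same share.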

How the data were processed

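RNA libraries (poly(A) selection, a directional kit, 500 ng of total RNA and paired reads of 76 bases, per the labels' protocols) had their X-chromosome variants called by the authors with CLC Genomics Workbench's Basic Variant Call tool (per the series description) on build mm10, as the submitters' processing notes state. The labels and headers name no aligner or caller settings. The deposited values, per the file headers, are the count of variant reads, the coverage count, neither normalised, and the percent that the authors made from both. The average base quality, a score deposited in 7 tables, served as a filter in an alternative.

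Here, single-base variants with at least 20 reads in both tables were paired by position and allele, the reference share was taken as 100 minus the variant percent, and reads were summed per gene name in the tables. A site naming several genes went to the gene with a GENCODE M21 exon there. Each pair of libraries was tested gene by gene (Fisher's exact test, two-sided) with Benjamini-Hochberg adjustment over all genes of the pair (Python 3.11.15, scipy 1.17.1, pandas 2.3.3), checked on simulated data. Intervals are Wilson's for a share and Newcombe's for a difference, at 95%; they cover counting error only, since reads carry no molecular identifiers and sites can share reads. The lowest listed variant count was 5 and percent about 10 in the tables of MEF1 and LowK; MEF2 was listed from 2 reads and 5%. Named genes were those called in a pair, those past the test with at least 10 points in at least 2 pairs, the 5 best covered uncalled genes per pair, the measured escape genes, the genes next to the 20-point limit, and the 4 largest falls at day 56; others are said to be named after their values were seen. The members, gene lists and rules were chosen with earlier results of these data known. Coverage ratios were scaled by the median ratio over the genes of a pair. Alternatives were other read minima, 1 site per gene, sites seen with both alleles in a MidK library, a base quality of at least 30, MEF2 as reference, single gene names, a limit of 10 points, genes with 2 or more sites, sites common to all 4 libraries, and scaling by total coverage; the last 3 were chosen after seeing the data.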

Additional observations from a re-analysis of the deposited data

Results flagged for a closer look

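Insertions, deletions and multi-base variants lay outside the comparisons above and were set against MEF1 at shared positions of at least 20 reads. Reference shares at least 20 points higher in LowK were found at 1 such variant at day 35, 5 at day 52 and 6 at day 56, of 132, 131 and 136 shared. Shares at least 20 points lower were found at 5, 1 and 1. A 1-base deletion in Dynlt3 had 26 of 67 reference reads in LowK at day 56, against 4 of 58 in MEF1, and 16 of 47 at day 52. In Wdr13 a 1-base deletion had 11 of 39 reads in LowK at day 56, against 0 of 21 in MEF1, and a 1-base insertion had 9 of 24, against 2 of 21. A 4-base insertion in Syap1 had 18 of 35 reads in LowK at day 56, against 8 of 34 in MEF1. These variants were not tested, and alignment around insertions and deletions can shift their counts.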

How the results depend on the processing

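No paired analysis was possible because each LowK day has 1 library and shares at most 1 replicate number with the fibroblasts. Of 771 repeats of a named gene's difference under an alternative, 713 kept their direction and side of the call, 19 became calls, 5 lost one and 34 changed sign. The 713 is not a measure of robustness, since it holds repeats that could not differ. With a limit of 10 points the differences stay the same numbers, and this gave 66 of the 713 and 17 of the 19. The base quality filter kept all 86 of its repeats. At least 50 reads per site left 0, 0 and 1 called genes at days 35, 52 and 56 (of 66, 71 and 66 tested), and 10, 13 and 17 genes with both alleles in LowK. Of the genes called in the main comparison, that minimum left only 0, 0 and 2 to test. The fall in calls there thus came mostly from genes that dropped out. A limit of 10 points gave 8, 10 and 20 calls; a range of 20% to 80% gave 11, 18 and 20 genes with both alleles in LowK. At day 35 the count of calls was 1 without single-site genes and 1 at sites common to all 4 libraries. Tceal3 could not be tested in the former, nor Bgn in the latter. At day 52 the count of calls was 5 at a minimum of 10 reads and 5 against MEF2. The medians against MEF2 were 0.44, 1.31 and 3.27 points, with 0 at day 52 on 1 site per gene and 0.43 at day 56 at a minimum of 10 reads. The 34 sign changes comprise 9 differences that had passed the test and 25 that had not, of which 2 passed it in the alternative (Syap1 at day 35 and Rps4x at day 52, both against MEF2). Of those that had passed, Hdac6 at day 35 became -4.0 at 50 reads and -0.17 on 1 site, Pdha1 at day 56 became 0.84 on 1 site, and against MEF2 the values were 0.15 for Rps4x at day 35, 1.23 for Nono and 2.27 for Tspan6 at day 52, and 0.20 for Pdha1, 0.46 for Tmem164 and 0.19 for Tspan6 at day 56. Of the others, the values against MEF2 were 1.41 for Dynlt3, 0.49 for Gm14681 and 3.01 for Syap1 at day 35, 1.48 for Eif2s3x, -2.55 for Las1l, 2.20 for Rps4x and 2.87 for Syap1 at day 52, and -1.81 for Eif2s3x and 0.41 for Gm14681 at day 56. On 1 site they were 0.10 for Dynlt3 and 0.053 for Gm14681 at day 35, 2.89 for Eif2s3x, 1.07 for Kdm5c and 6.66 for Utp14a at day 52, and 6.95 for Pbdc1, -2.45 for Syap1 and 8.49 for Utp14a at day 56. At 50 reads they were 0.052 for Gm14681 at day 35, 2.89 for Eif2s3x and 0.50 for Kdm5c at day 52, and 6.95 for Pbdc1 and -2.45 for Syap1 at day 56. The values of Eif2s3x, Pbdc1 and Syap1 at 50 reads equal those on 1 site, so these sign changes are not independent of each other. At day 52 the values were 1.45 for Eif2s3x and -0.48 for Las1l at a minimum of 10 reads, and 1.74 for Kdm5c at sites common to all 4 libraries. At day 56, Wdr13 lost its call at a minimum of 10 reads, on 1 site and against MEF2, Fundc1 on 1 site, and Hdac6 at 50 reads; with sites of a single gene name Timp1 could not be tested. Scaled by total coverage, 4 coverage ratios passed 1: 1810030O07Rik (1.20) and Tceal3 (1.27) at day 52, Acot9 (1.01) and Wdr13 (1.11) at day 56; Tceal3 at day 35 moved to 3.65 and Bgn to 0.0145. The first 10 Mb at day 56 kept a median of 7.57 to 19.6 points over the alternatives. The causes were not tested. Coverage limits the genes with 1 site (33, 37 and 29 per pair), whose shares rest on few reads.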
